A study of Mus musculus with 4 samples.

Results

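The skeletal myosin heavy chain genes Myh3, Myh2, Myh1, Myh4, Myh8 and Myh13 lie in this order, all on the plus strand, in a single cluster on mouse chromosome 11. Chromatin accessibility across the cluster was followed in 4 single-nucleus ATAC-seq libraries of sorted brain nuclei, in an assay that counts where a transposase cuts open DNA. Every peak from the first to the last of the 6 gene bodies with 20 kb on each side was taken, at chr11:67058300-67391586 of GRCm38. After peaks of the libraries that overlapped by at least 1 bp were merged, the window held 34 of 185260 regions, of which 10 had a peak in each library, among 46698 such regions in all. The cluster was chosen because Myh1 and Myh4 had led groups of neurons in earlier results of these data, so the difference between nuclei with and without Rnase10 counts is given as a description, with no test.

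All 4 libraries came from mice of genotype Dlx6aCre;Sun1/sfGFP at P30, in which a Cre line active in forebrain inhibitory neurons switches on a green nuclear envelope protein, and nuclei positive for GFP and DAPI were sorted. Of these, 2 libraries were from cortex and 2 from hippocampus, and the labels did not say whether the libraries of a brain region came from separate animals, so p-values measure only the spread between libraries. All 8 pan-GABA genes and 2 of 7 excitatory neuron markers had a peak in each library. So did 21 of 27 sarcomere genes outside the cluster, 6 of 8 oligodendrocyte-lineage markers and 4 of 6 astrocyte markers. A peak in each library therefore does not identify the cells sorted. The libraries held 2355 to 5576 nuclei and 32005984 to 117290059 cut sites in peaks, with cortex 1 the deepest, at a median of 47236 cut sites per nucleus, and cortex 2 the shallowest, at 7352. Any pair of libraries shared 11 to 47 barcode sequences.

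Myosin heavy chains are the motor proteins of the thick filament, and each muscle fibre type is defined by the heavy chain it uses. Myh3 and Myh8 encode the embryonic and perinatal chains, Myh2, Myh1 and Myh4 the fast adult chains of type IIa, IIx and IIb fibres, and Myh13 the chain of extraocular muscle. These genes are best known from skeletal muscle, where neighbouring genes of the cluster are switched on in turn during development. Rnase10 encodes a member of the ribonuclease A family known from the epididymis.

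Nuclei were grouped by the single peak that each library had over Rnase10, and a nucleus with at least 1 cut site there was placed in the Rnase10 group. The group held 575 of 2355 nuclei in cortex 1, 230 of 4191 in cortex 2, 309 of 5576 in hippocampus 1 and 272 of 3184 in hippocampus 2. As shares these were 24.4% (exact Clopper-Pearson 95% interval 22.7 to 26.2), 5.49% (4.82 to 6.22), 5.54% (4.96 to 6.17) and 8.54% (7.59 to 9.57), where the intervals cover counting error only. The large share in cortex 1 went with its depth. After each nucleus was thinned to 2000 cut sites the shares were 2.59%, 2.01%, 1.63% and 2.46%, and 206 nuclei of cortex 2, 131 of hippocampus 1 and 14 of hippocampus 2 were too shallow to enter. Neither the unthinned difference (hippocampus minus cortex -7.91 points, exact permutation p = 1.0, two-sided) nor the thinned one (-0.251 points, exact permutation p = 0.667) exceeded the spread between libraries, and 2 against 2 libraries allow no p below 0.333. Within a library the Rnase10 group was slightly deeper, with medians of 54628 against 44650 cut sites in cortex 1, 8472.5 against 7268 in cortex 2, 14770 against 12501 in hippocampus 1 and 17620.5 against 14594 in hippocampus 2. Levels were therefore scaled to the cut sites of each group, as CPM (cut sites scaled to the total of the group).

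The results turned on 4 regions, and the part of each that was open in all 4 libraries is printed here from the plus strand of GRCm38.p6, centred on at most 300 bases. The first lay between genes, 17.3 kb upstream of Myh2, and the second inside Myh1, 4.56 kb downstream of its start, where 24 of the 300 bases were coding and the others intronic. The third lay upstream of Myh4 and ended 0.054 kb before the GENCODE start of that gene, and it covered the RefSeq start at 67237812. There, 66 of the 300 bases were an exon of Myhas, an antisense RNA that runs against the myosin genes. The fourth lay inside Myh4, 18.5 kb downstream of its start, with 84 of 279 bases coding. Capitals mark 5 motifs, searched on both strands: the E-box form CAGCTG, the core TAATTA, the TATA box TATAAA, the MEF2 motif and the CArG box bound by SRF. The second of the 3 TATA boxes in the third sequence overlapped its MEF2 motif and stands within it.
Myh2-upstream, chr11:67153235-67153528: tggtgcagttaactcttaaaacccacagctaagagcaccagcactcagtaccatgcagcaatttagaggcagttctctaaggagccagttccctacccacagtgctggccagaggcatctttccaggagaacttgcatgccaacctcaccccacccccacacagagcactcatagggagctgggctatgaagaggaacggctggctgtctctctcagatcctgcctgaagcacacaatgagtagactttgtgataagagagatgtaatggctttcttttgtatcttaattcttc
Myh1 body, chr11:67204808-67205107: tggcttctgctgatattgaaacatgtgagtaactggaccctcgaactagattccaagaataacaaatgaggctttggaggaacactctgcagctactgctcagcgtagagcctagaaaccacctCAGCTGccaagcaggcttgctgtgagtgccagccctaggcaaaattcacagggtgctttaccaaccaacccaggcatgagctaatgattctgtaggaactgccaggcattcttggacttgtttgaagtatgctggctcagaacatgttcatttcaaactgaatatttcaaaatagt
Myh4-upstream, chr11:67237502-67237801: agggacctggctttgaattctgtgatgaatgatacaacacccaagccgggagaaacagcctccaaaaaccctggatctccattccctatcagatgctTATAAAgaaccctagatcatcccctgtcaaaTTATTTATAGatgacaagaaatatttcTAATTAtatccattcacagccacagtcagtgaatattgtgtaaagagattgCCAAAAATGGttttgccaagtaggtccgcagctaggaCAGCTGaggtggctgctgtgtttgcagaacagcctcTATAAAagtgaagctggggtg
Myh4 body, chr11:67256897-67257175: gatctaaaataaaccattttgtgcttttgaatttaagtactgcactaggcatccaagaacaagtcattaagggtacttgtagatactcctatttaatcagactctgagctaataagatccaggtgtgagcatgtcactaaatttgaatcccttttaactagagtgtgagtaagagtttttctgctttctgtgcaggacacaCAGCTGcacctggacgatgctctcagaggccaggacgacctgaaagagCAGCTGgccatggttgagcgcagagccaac

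The Myh4-upstream sequence was the only one of these 4 with more than a single kind of these motifs. Counted back from the RefSeq start of Myh4, a TATAAA began 31 bases before it, CAGCTG 67 bases, the CArG box 104 bases, TAATTA 155 bases and the MEF2 motif 182 bases before it. These are motifs known from promoters of muscle genes. For comparison, windows were made the same way from regions with a single peak in each library, and short windows were left out. Of these 34021 windows, a CArG box was found in 1.29% and a MEF2 motif in 4.21%. TAATTA was found in 6.05%, TATAAA in 9.38% and CAGCTG in 31.6%. The Myh1 sequence held 1 CAGCTG, the Myh4 body sequence held 2, and the Myh2-upstream sequence held none of the 5 motifs. The GC content was 49.3%, 45.7%, 43.0% and 43.4% in the order printed, against a median of 52.7% over all windows. Of the 6 RefSeq promoters (250 bases before to 50 after the start), the Myh4 promoter was overlapped by a peak in all 4 libraries, the Myh8 promoter in hippocampus 1 alone, and those of Myh3, Myh2, Myh1 and Myh13 in none.

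Among the cluster regions with a peak in 3 or 4 libraries, the 3 with the highest mean ratio of nuclei with over nuclei without Rnase10 counts lay inside Myh1, upstream of Myh4 and upstream of Myh2, and the 2 with the lowest lay inside Myh4. Of the 10 regions with a peak in each library, 4 were higher in the Rnase10 group in all 4 libraries and 3 were lower in all 4, where 11.8% and 16.5% of all such regions were. A single region, inside Myh1, was at least 2-fold higher in all 4 libraries, a call made for 35 of 46698 regions (0.0749%). None of the 10 was at least 2-fold lower in all 4, where 0.0128% of all regions were. Because this contrast chose the genes, nothing is read from these counts. Over the whole window the log2 ratio of summed CPM was -0.02 in cortex 1, 0.29 in cortex 2, 0.44 in hippocampus 1 and 0.32 in hippocampus 2 (mean 0.26 ± 0.20 SD, n = 4).

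**Figure D1:**
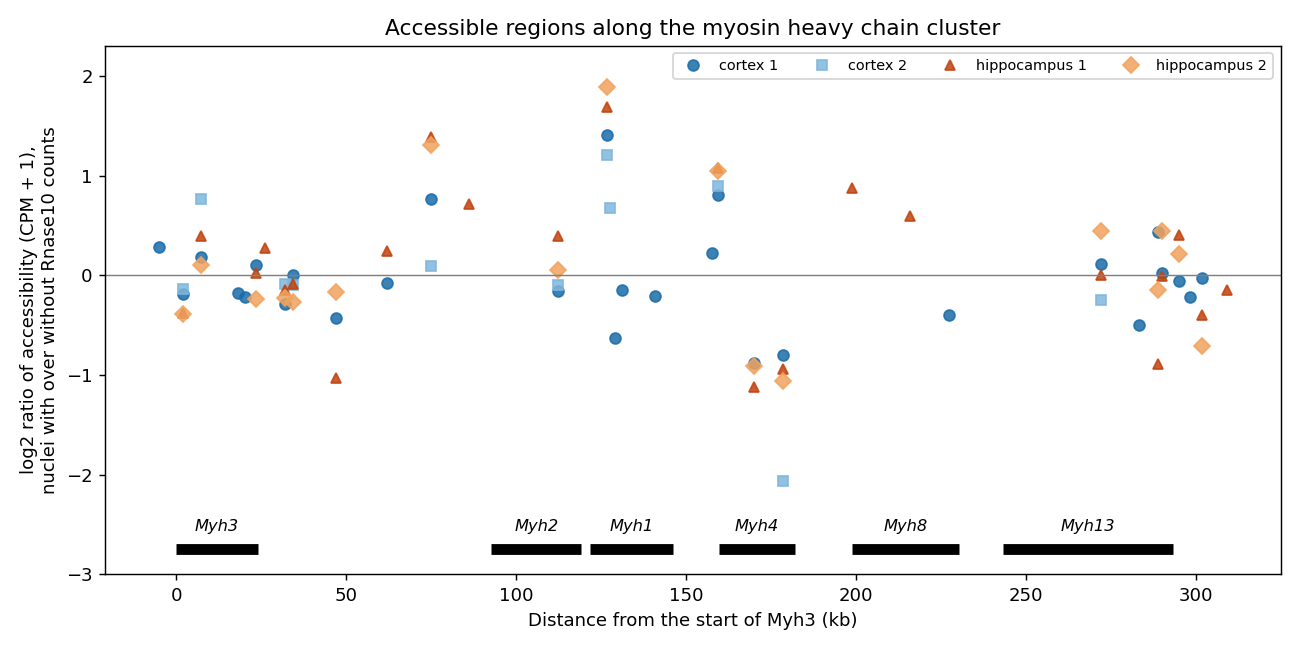
The log2 ratio of accessibility in nuclei with over nuclei without Rnase10 counts (y axis, CPM with a pseudocount of 1) is plotted for each region and library against its distance from the start of Myh3 in kb (x axis), with black bars for the 6 gene bodies. The Myh1 region lies between 1.204 and 1.89 in all 4 libraries, and the Myh4 body region 18.5 kb into the gene lies between -2.07 and -0.80.

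Myh1, the gene of the IIx chain, held the most contrasted region of the cluster (chr11:67204615-67205264). In nuclei without Rnase10 counts it had 3.46 CPM in cortex 1, 6.45 in cortex 2, 4.69 in hippocampus 1 and 2.88 in hippocampus 2. In nuclei with Rnase10 counts it had 10.8, 16.2, 17.4 and 13.4 CPM in the same order. The log2 ratios, taken with a pseudocount of 1 CPM here and throughout, were 1.40, 1.204, 1.69 and 1.89 (mean 1.55 ± 0.30 SD, n = 4). Ranked by the lowest of its 4 ratios, the region stood at place 10 of 46698. The share of nuclei with a cut site in it was 21.4% (18.1 to 25.0) against 7.13% (5.98 to 8.43) in cortex 1, 9.57% against 2.78% in cortex 2, 12.6% against 2.83% in hippocampus 1 and 11.0% against 2.23% in hippocampus 2. After thinning to 2000 cut sites the share was again higher in all 4 libraries, at 2.09%, 2.62%, 3.24% and 2.21% against 0.393%, 1.33%, 0.954% and 0.518%. Myh1 as a whole gene, summed over its body and the 2 kb upstream, had a mean log2 ratio of 1.31 ± 0.61 (SD, n = 4).

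Upstream of Myh4, the gene of the IIb chain, the region over its RefSeq promoter (chr11:67237252-67237975) was also higher in the Rnase10 group. Its levels were 4.35, 5.42, 3.69 and 4.27 CPM in nuclei without and 8.35, 10.9, 8.90 and 9.87 CPM in nuclei with Rnase10 counts, in the order cortex 1, cortex 2, hippocampus 1, hippocampus 2. The ratios were close to each other at 0.80 to 1.08 (mean 0.96 ± 0.13 SD, n = 4), which put the region at place 97 of 46698. It lay just outside the 2-fold limit in both cortex libraries.

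The region 17.3 kb upstream of Myh2, the gene of the IIa chain, differed between the libraries (chr11:67153129-67153685). It had 3.09, 6.62, 6.11 and 7.08 CPM in nuclei without Rnase10 counts and 5.96, 7.14, 17.6 and 18.9 CPM in nuclei with them. Both hippocampus libraries were thus above both cortex libraries within the Rnase10 group. The cortex 2 peak was shorter, at 294 bp against 508 to 557 bp in the other libraries, and its Rnase10 group had 15 cut sites there. Per kb of peak, the Rnase10 group had 11.7, 24.3, 31.6 and 35.2 CPM in the same order of libraries. The log2 ratio was 1.39 and 1.30 in hippocampus but 0.77 in cortex 1 and 0.09 in cortex 2 (mean 0.89 ± 0.60 SD, n = 4).

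Inside Myh4, 2 regions went the other way, and both are named after their values were seen. The region 18.5 kb into the gene (chr11:67256519-67257372) had 8.62, 5.18, 2.92 and 5.80 CPM in nuclei without and 4.51, 0.476, 1.03 and 2.26 CPM in nuclei with Rnase10 counts (mean log2 ratio -1.22 ± 0.57 SD, n = 4). The cortex 2 value rested on 1 cut site, and without that library's Rnase10 group the ratios were -0.80, -0.94 and -1.06. Those ratios rested on 155 cut sites of the Rnase10 group in cortex 1, but 5 in hippocampus 1 and 11 in hippocampus 2. The region 9.83 kb into the gene (chr11:67247856-67248589) had a peak in 3 libraries and ratios of -0.88 in cortex 1, -1.12 in hippocampus 1 and -0.91 in hippocampus 2. There the Rnase10 group had 98, 5 and 8 cut sites in the same order. At levels this low in hippocampus, the pseudocount of 1 CPM weighs on the ratios. Summed as a gene, over its higher upstream and lower body regions, Myh4 had a mean log2 ratio of -0.02 ± 0.18 (SD, n = 4). The coding part of the region 18.5 kb into Myh4 had copies of 87 bases at 94.3% identity in Myh1 and 93.1% in Myh2, and how reads of such copies were assigned was not tested. In the Myh1 sequence printed above the closest copy was 45 bases at 88.9% identity in Myh8.

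**Figure D2:**
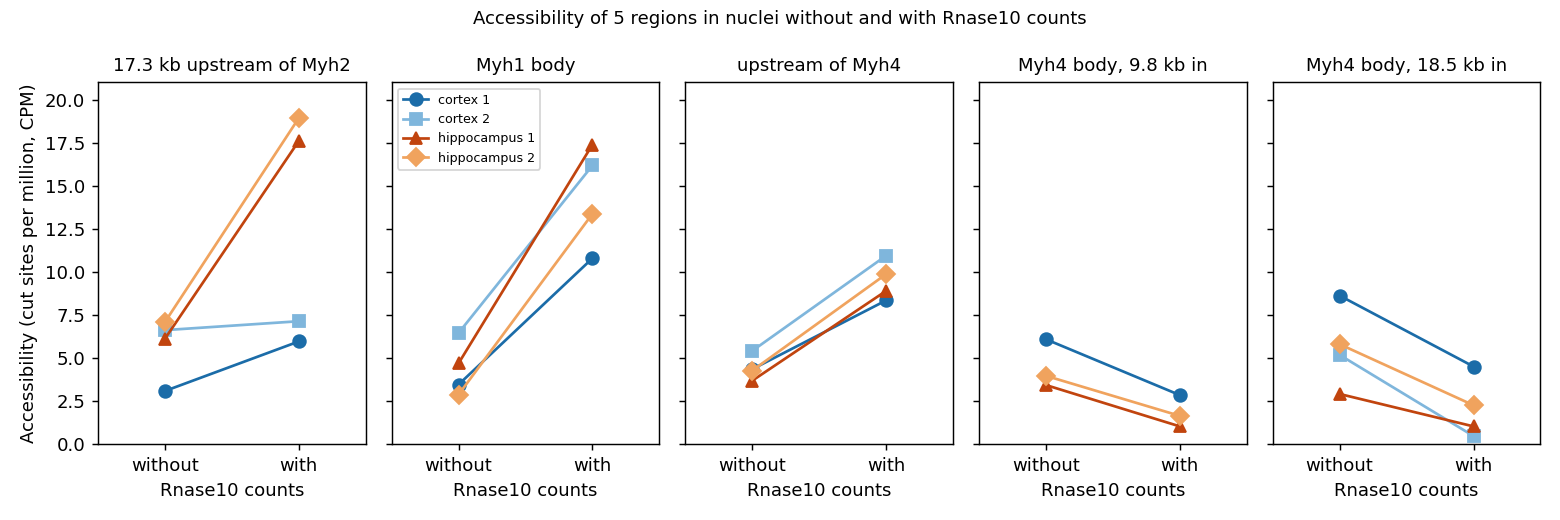
Accessibility in CPM (y axis) of 5 regions is plotted in nuclei without and with Rnase10 counts (x axis), with a line for each library. All lines are higher with Rnase10 counts in the Myh2-upstream, Myh1 and Myh4-upstream panels, by the least in cortex 2 upstream of Myh2 (6.62 and 7.14 CPM), and all are lower in both Myh4 body panels.

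The remaining members had smaller mean ratios. Myh3, the embryonic gene, had mean log2 ratios of -0.28 ± 0.13 at its region 1.80 kb downstream of the start and 0.36 ± 0.29 at 7.05 kb, and -0.003 ± 0.14 as a gene (SD, n = 4). Myh2 had a single region over its body, with 0.05 ± 0.24. Myh13 had 0.08 ± 0.29 at its leading region, 28.5 kb into the gene, and -0.03 ± 0.29 as a gene. Myh8, the perinatal gene, had peaks in 2 libraries, with gene ratios of -0.40 in cortex 1 and 0.93 in hippocampus 1, and its region over the start (0.87, in hippocampus 1) rested on 18 cut sites of the Rnase10 group. Of the 34 regions, 16 had a peak in 1 library and 8 in 2 or 3. Of the 14855 protein-coding genes with a peak in each library, 9.5% were higher in all 4 libraries and 14.5% lower, and Myh1 was the only one of the 5 members among these genes that was higher in all 4. At a limit of 1.5-fold in all 4 libraries, 0.0471% of these genes were higher and 0.0135% lower, and no member was among them, as Myh1 was 0.54 on the log2 scale in cortex 1.

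Per kb of peak, the order of the members changed from library to library. In cortex 1, over all nuclei, the genes ran from 5.12 CPM per kb at Myh8 and 6.67 at Myh1 to 7.82 at Myh4 and 8.11 at Myh2. In hippocampus 1 they ran from 6.25 at Myh2 and 6.26 at Myh8 to 9.51 at Myh3 and 10.6 at Myh1. Levels in cortex 2, whose peaks were the shortest, were 18.2 to 24.3 CPM per kb, and no order of the genes is therefore given across libraries. The window took 0.0055% to 0.0111% of the cut sites of a library.

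The 3 higher regions also followed the number of Rnase10 cut sites in a nucleus. At 0, 1 to 3 and 4 or more Rnase10 cut sites, the Myh1 region had 3.46, 7.62 and 18.7 CPM in cortex 1, 4.69, 15.9 and 27.9 in hippocampus 1, and 2.88, 13.0 and 16.3 in hippocampus 2. The Myh2-upstream region had 3.09, 4.64 and 9.26 CPM in cortex 1, 6.11, 16.6 and 24.6 in hippocampus 1, and 7.08, 14.8 and 50.7 in hippocampus 2. The Myh4-upstream region reached 10.7, 14.7 and 19.9 CPM at 4 or more in these libraries. The Myh4 body region 18.5 kb in had 8.62, 5.01 and 3.26 CPM in cortex 1, and at 4 or more no cut site was counted in either hippocampus library. The top class held 156, 39 and 29 nuclei, and in cortex 2 it held 11, too few to follow. Its hippocampus values rested on 9 to 28 cut sites in the 3 higher regions. With so few cut sites, nothing is read from the absence of cut sites in the Myh4 body region there. The classes come from the same Rnase10 counts that chose the genes, so these values are a description.

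**Figure D3:**
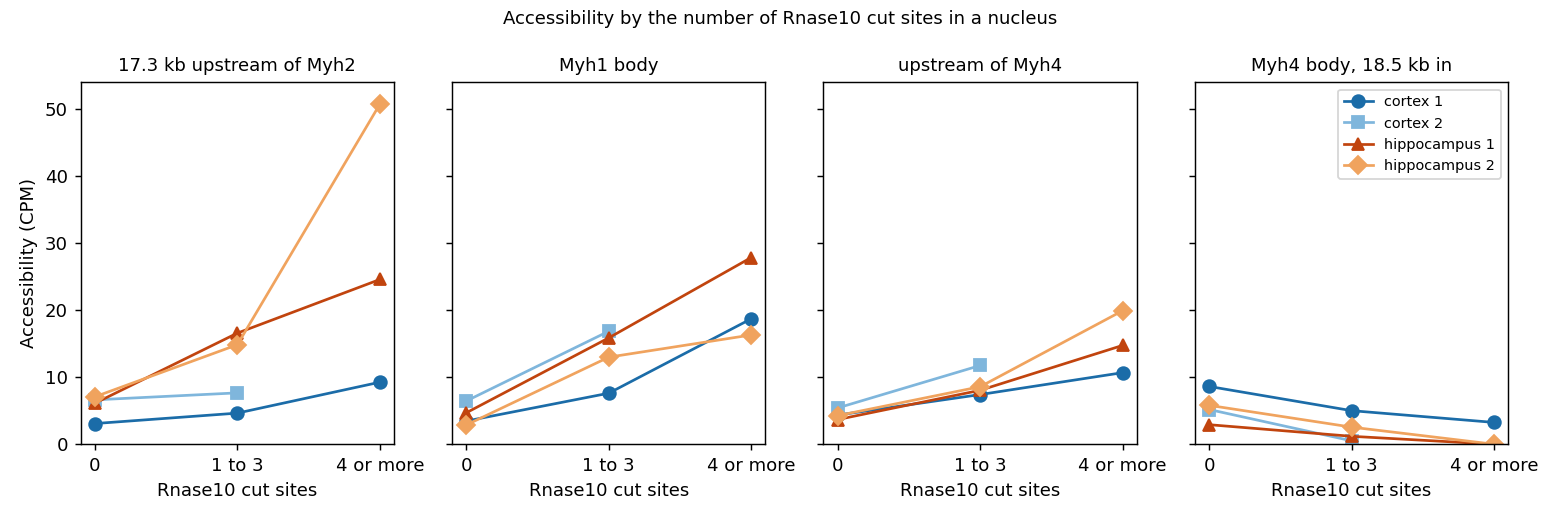
Accessibility in CPM (y axis) of 4 regions is plotted against the number of Rnase10 cut sites in a nucleus (x axis), with a line for each library and without the 11 nuclei of cortex 2 in the top class. In the top class of the other 3 libraries the Myh1 region stands at 16.3 to 27.9 CPM and the Myh4 body region at 0 to 3.26.

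Nuclei without any Rnase10 count were described on their own. A count of 0 does not show a closed Rnase10 peak, since the share with a count fell in each library after thinning. Nuclei with an open but uncounted peak can therefore be among them. The nuclei without a count were split by whether they had a cut site in the Myh1 region, a split chosen after its values were seen. With a cut site were 127 of 1780 nuclei in cortex 1, 110 in cortex 2, 149 in hippocampus 1 and 65 in hippocampus 2. The Myh2-upstream region then had 9.46, 19.9, 20.5 and 23.5 CPM in nuclei with and 2.49, 6.18, 5.65 and 6.67 CPM in nuclei without a Myh1-region cut site. The log2 ratio was 1.62 ± 0.07 (SD, n = 4), so in these nuclei cortex 2 did not stand apart. The Myh4-upstream region had ratios of 0.66, 1.01, 1.08 and 1.38 (mean 1.03 ± 0.30 SD, n = 4). The other 7 regions had means between -0.78 and 0.11, and none of them was higher in all 4 libraries. The coding-exon region of Myh2 was lower in all 4, but with a ratio of only -0.0093 in hippocampus 2. In nuclei with a Myh1-region cut site it had 38 cut sites in cortex 1, 1 in cortex 2, 0 in hippocampus 1 and 1 in hippocampus 2. With counts this low nothing is read from it, and the share of all regions lower in all 4 was not counted. Of all 46698 regions, 0.591% were at least 2-fold higher in all 4 libraries in this split. The values of the Myh2-upstream and Myh4-upstream regions in nuclei with a Myh1-region cut site rested on 11 to 67 cut sites in a library, and both ends of a fragment are counted.

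**Figure D4:**
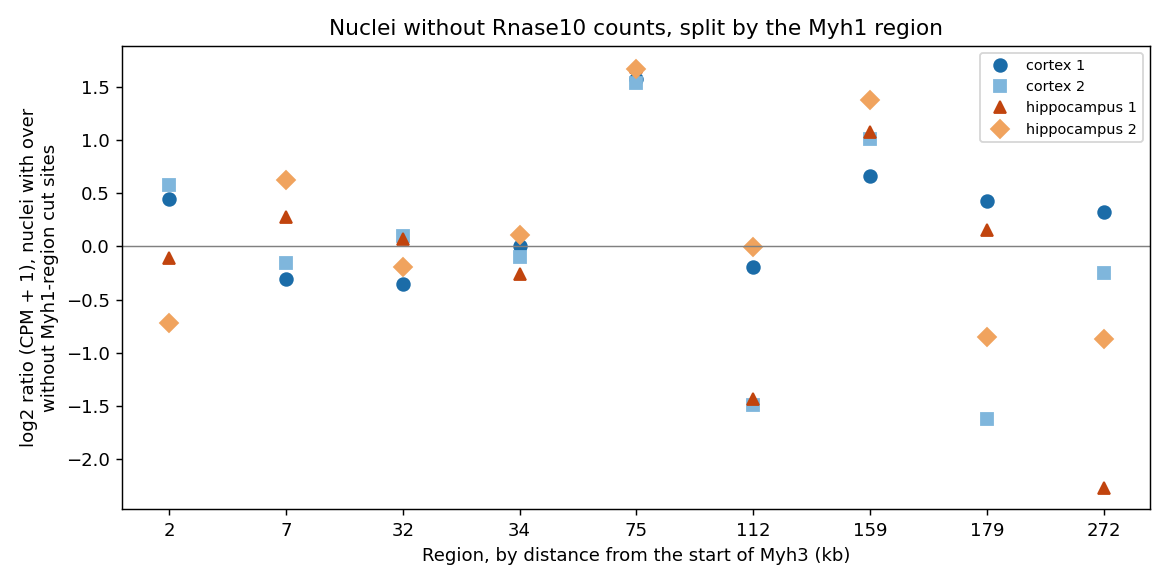
The log2 ratio (y axis, CPM with a pseudocount of 1) in nuclei without Rnase10 counts, with over without a cut site in the Myh1 region, is plotted for the 9 other regions by distance from the start of Myh3 (x axis). The Myh2-upstream region at 75 kb lies between 1.54 and 1.69 and the Myh4-upstream region at 159 kb between 0.66 and 1.38.

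Cortex and hippocampus were compared by edgeR over all regions, with 2 libraries each. In the Rnase10 group, 0 of 46300 regions passed an adjusted p of 0.05 (0%), while 3380 had an unadjusted p below 0.05 and DESeq2 called 82. None of the 9 cluster regions tested was called by either tool. The Myh2-upstream region stood out in size, with 7.30 and 7.90 TMM-normalised CPM in cortex against 25.6 and 23.5 in hippocampus (means 7.60 ± 0.43 and 24.5 ± 1.51 SD). The difference (hippocampus over cortex) was 1.70 on the log2 scale (SE 0.39, edgeR unadjusted p = 0.0015, adjusted p = 0.370). It passed the threshold (edgeR adjusted p = 0.0332) when the fit was limited to the 19507 regions of which each library's peak covered at least 50%, where 47 regions (0.241%) were called. Over 15 alternatives its adjusted p ran from 0.0332 to 1.00 in edgeR or DESeq2, and with the Rnase10 group set on thinned nuclei the difference was 0.77. The fits did not correct for the shorter cortex 2 peak, at 294 bp against 508 to 557 bp in the other libraries. The 50% limit kept the region, with 294 of its 557 bp covered in cortex 2. Per kb of peak, the Rnase10 group had 11.7 and 24.3 CPM in cortex against 31.6 and 35.2 in hippocampus. The Myh1 region differed by 0.46 (SE 0.40, edgeR adjusted p = 0.963) and the Myh4-upstream region by 0.19 (SE 0.42, edgeR adjusted p = 0.999). A missed threshold does not show that cortex and hippocampus were alike.

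Taking all nuclei together, no region of 46698 passed in edgeR (0%), 3803 had an unadjusted p below 0.05, and the 352 calls of DESeq2 held none in the cluster. The Myh2-upstream region had 4.84 and 7.29 CPM in cortex and 9.78 and 10.3 in hippocampus, a difference of 0.73 (SE 0.35, edgeR adjusted p = 0.702). Per kb of peak, it had 7.74 and 22.6 CPM in cortex and 12.4 and 15.4 in hippocampus, so cortex 2, with the shortest peak, was highest. Without cortex 1, edgeR called 3193 regions (6.84%), and 2 of them lay in the cluster, an intron region of Myh3 (2.29, edgeR adjusted p = 0.0257) and the region over the lincRNA 2310065F04Rik (6.26, adjusted p = 0.0023). In both, the peak of cortex 2 was short, at 118 bp against 476 to 562 bp in the other libraries in the Myh3 intron and 14 bp against 491 to 1419 bp at the lincRNA. In the third comparison, whether the Rnase10 difference itself differed between brain regions, edgeR called 12 of 46698 regions (0.0257%), none in the cluster, and DESeq2 called 0, where 992 had an unadjusted p below 0.05. The Myh2-upstream difference was greater in hippocampus by 0.82 (SE 0.36, edgeR unadjusted p = 0.0212, adjusted p = 0.645; -0.014 with the Rnase10 group set on thinned nuclei) and the Myh1 difference by 0.55 (SE 0.35, edgeR adjusted p = 0.882).

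At the level of genes, edgeR called 0 of 14622 genes over all nuclei (0%, 511 below an unadjusted p of 0.05, 21 by DESeq2), 0 of 14601 in the Rnase10 group (0%, 550 below an unadjusted p of 0.05, 3 by DESeq2) and 4 of 14622 for the difference between brain regions of the Rnase10 difference (0.0274%, 0 by DESeq2, where 238 had an unadjusted p below 0.05). None was a member of the cluster. Myh2 had the largest difference between brain regions of the 5 members tested, being lower in hippocampus over all nuclei by 1.76 on the log2 scale (SE 0.73, edgeR unadjusted p = 0.043, adjusted p = 1.00). The peaks of Myh2 differed in length, at 738 and 216 bp in cortex and 274 and 104 bp in hippocampus. Per kb of peak, over all nuclei, Myh2 had 8.11 and 21.4 CPM in cortex and 6.25 and 9.23 in hippocampus. On that scale hippocampus 2 was above cortex 1. Myh8 was not tested, since it had no region with a peak in each library.

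The other genes of muscle are set beside the share over all genes, 9.5% higher and 14.5% lower in all 4 libraries. Of 27 other sarcomere genes, 21 had a peak in each library, of which 1 was higher and 3 were lower in the Rnase10 group in all 4 libraries (median of the mean log2 ratios -0.05), which is near those shares. Tnni1, the slow skeletal troponin I, had -0.53 ± 0.29 and was lower in all 4, while Myl3, a slow and ventricular myosin light chain, had -0.24 ± 0.31 and Tpm2, a tropomyosin, -0.24 ± 0.28. The list summed to 791 to 940 CPM in the Rnase10 group and 808 to 942 CPM in the other nuclei. Of 8 other myosin heavy chain genes, 2 were higher in all 4, Myh7 (0.47 ± 0.22), the slow and cardiac chain, and Myh10 (0.13 ± 0.10), a nonmuscle chain. Of 14 muscle regulators, 7 had a peak in each library, and the defining regulators Myod1, Myf5, Myf6, Myog and Pax7 were not among them. Of those 7, Mef2c was higher in all 4 (0.09 ± 0.05) and Eya1 lower (-0.32 ± 0.15).

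Markers of brain cell types are read against the same shares, 9.5% higher and 14.5% lower, and in lists this short a single gene can sit at the share. Neurogliaform cells, which release GABA slowly and widely, are marked by Lamp5, and 7 of 8 markers of these cells were higher in the Rnase10 group in all 4 libraries, led by Npy (0.61 ± 0.13), which encodes neuropeptide Y, Lamp5 (0.51 ± 0.16) and Nos1 (0.35 ± 0.21), the neuronal nitric oxide synthase. The list summed to 637 to 941 CPM in the Rnase10 group and 551 to 806 CPM in the other nuclei. Of 6 markers of interneurons from the medial ganglionic eminence (MGE), 4 were lower in all 4, namely Sst (-0.51 ± 0.38), Satb1 (-0.32 ± 0.20), Sox6 (-0.23 ± 0.16) and Lhx6 (-0.15 ± 0.10), and the list summed to 285 to 784 against 334 to 821 CPM. Of 7 markers of the caudal eminence (CGE), 2 were higher, Adarb2 (0.26 ± 0.07) and Prox1 (0.18 ± 0.10), and 1 was lower, Npas1 (-0.18 ± 0.10). Of 8 pan-GABA genes, 5 were higher and 1 lower. Of 6 oligodendrocyte-lineage markers, 3 were lower, led by Olig1 (-0.71 ± 0.60). The part of these cell types in the difference at the myosin genes was not tested.

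**Figure D5:**
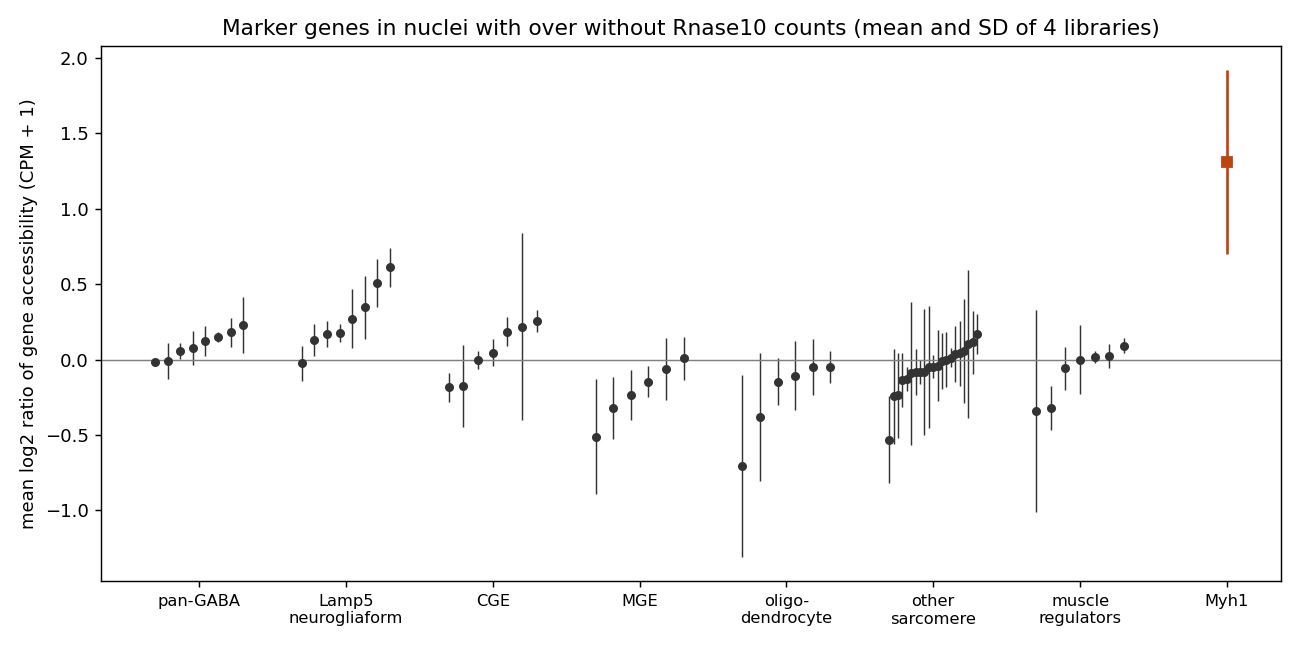
The mean log2 ratio of gene accessibility in nuclei with over nuclei without Rnase10 counts (y axis, CPM with a pseudocount of 1, mean and SD of 4 libraries) is plotted for each gene of 7 lists and for Myh1 (x axis). Myh1 stands at 1.31, the Lamp5 neurogliaform list reaches 0.61 at Npy, and the other sarcomere genes run from -0.53 to 0.17.

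The same lists were read in the nuclei without Rnase10 counts, split by the Myh1 region. Among the MGE markers, 4 of 6 were lower in all 4 libraries in nuclei with a Myh1-region cut site, namely Sox6 (-0.76 ± 0.16), Satb1 (-0.61 ± 0.30), Pvalb (-0.56 ± 0.31) and Lhx6 (-0.47 ± 0.43). Of 8 neurogliaform markers 4 were higher, Npy (0.77 ± 0.25), Nos1 (0.53 ± 0.21), Id2 (0.42 ± 0.26) and Reln (0.15 ± 0.16), and of 7 CGE markers 2 were higher, Prox1 (0.68 ± 0.19) and Adarb2 (0.49 ± 0.16). Of all 14855 genes, 10% were higher and 13.3% lower in all 4 libraries in this split. Of the 21 other sarcomere genes, 1 was higher and 1 lower. Markers of glia differed in this split too, with 2 of 4 astrocyte markers higher, Slc1a3 (0.53 ± 0.22) and Slc1a2 (0.36 ± 0.14), and 2 of 4 microglia markers lower, P2ry12 (-0.88 ± 0.57) and Csf1r (-0.32 ± 0.21). The part of any of these cell types in the difference at the myosin regions was not tested.

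Among genes with at least 20 CPM in the Rnase10 group or the other nuclei of every library, outside the cluster and 100 kb around Rnase10, those with the highest lowest-of-4 log2 ratio were Ipcef1 (0.50), Npy (0.47), Nlrc3 (0.47), Taf1b (0.43) and Ndst3 (0.40), and the lowest ratio of Myh1, itself under that limit of CPM, was 0.54. The 7 genes at least 1.5-fold higher in all 4 libraries had higher ratios than these 5 and were left out by the same limits. Genes beside the cluster had mean ratios nearer to 0 than Myh1 (1.31). The neighbours Gsg1l2 and Glp2r were however farther from 0 than Myh3, Myh2, Myh4 and Myh13. Of 11 protein-coding neighbours within 500 kb, those with the largest mean log2 ratios were Gsg1l2 (0.28 ± 0.09, with a peak in 3 libraries), Glp2r (0.21 ± 0.13) and Tmem220 (-0.18 ± 0.36).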

How the data were processed

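Nuclei were sorted and profiled with the 10x Chromium ATAC assay, and the submitters' processing notes name Cell Ranger ATAC 1.2.0 and the build GRCm38 (mm10). The deposited matrices hold raw counts of cut sites per peak and barcode, with no normalization by the authors, and peaks were called in each library separately. Motif matrices were not used here. No peak ran past a GRCm38 chromosome end. Peaks were merged into regions at an overlap of 1 bp, and counts were summed over nuclei per library and group, since nuclei are not replicates. Genes came from GENCODE M21 and promoters from RefSeq. The brain regions were compared by edgeR 4.0.16 (TMM, filterByExpr, robust quasi-likelihood test, two-sided, Benjamini-Hochberg adjustment over all regions or genes), on regions with a peak in each library, with DESeq2 1.42.0 as an alternative. The test was also tried on simulated data with a common dispersion, and the outcome is not given here. All 6 genes were named, with the leading region of each member. Named too were the 8 cluster regions of largest mean log2 ratio in 2 or more libraries. Of these, the regions at 67373264 (0.19 ± 0.23 SD), 67368116 (0.15 ± 0.25) and 67140085 (0.08 ± 0.22) are given only here. From each list at most 3 genes of largest absolute mean ratio were named (others were added after their values were seen). Last came 5 genes of like pattern and 3 neighbours. Doublets were not called and no barcode was filtered. The members and lists were chosen with earlier results of these data known. Alternatives covered normalization, filters, the Rnase10 limit, depth, scaling, pseudocount and each library left out.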

Additional observations from a re-analysis of the deposited data

How the results depend on the processing

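The log2 ratio of the summed window kept its sign under every alternative run, from 0.20 to 0.35, as did the mean ratios of the leading regions: 1.05 to 1.74 for the Myh1 region, 0.43 (4 or more Rnase10 cut sites) to 1.23 for Myh4-upstream, 0.63 to 1.24 for Myh2-upstream, -2.06 to -0.59 for the Myh4 body region at 67256519 and -1.56 to -0.47 for that at 67247856, with the values nearest 0 otherwise at a pseudocount of 5 CPM. The number of cluster regions at least 2-fold higher in each library with the peak was 1, and became 2 at 2 or more or at 4 or more Rnase10 cut sites and with the Rnase10 group set on thinned nuclei, 3 at a pseudocount of 0.1 CPM, 0 at 5 CPM and 0 at a fold limit of 4. The count of called cluster regions became 1 (Rnase10 group, regions at least 50% covered) and ran from 0 to 2 over the libraries left out (all nuclei). No called count of Myh genes moved from 0. The share of Rnase10 nuclei ran from -17.4 to 1.55 points and changed sign without cortex 1, the deepest library.

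Differences between brain regions that changed sign are given on the log2 scale, and the cause was not tested. With a library left out, where a lone library is assumed to vary like the other group, over all nuclei, Myh1 ran from -0.69 to 0.21, Myh13 from -0.23 to 0.090, the Myh1 region from -0.65 to 0.10, the Myh13 region at 67350166 from -0.34 to 0.13, the region at 67110076 from -0.17 to 0.11 and the lincRNA region from -1.14 to 6.26. In the Rnase10 group Myh4 ran from -0.17 to 0.30, Myh13 from -0.17 to 0.60, 67350166 from -0.24 to 0.65, 67110076 from -0.22 to 0.16 and the lincRNA region from -1.40 to 6.93. For the interaction Myh13 ran from -0.039 to 0.61, the Myh3 intron region from -0.88 to 0.14, 67110076 from -0.11 to 0.15, the lincRNA region from -0.30 to 3.44 and the Myh4 body region at 67256519 from -0.44 to 2.01. With the Rnase10 group set on thinned nuclei, Myh4 was -0.41 and 67110076 -0.68 and the Myh4-upstream region -0.49 in that group, and for the interaction Myh4 was -0.038, the Myh3 intron region 0.049, 67110076 -0.78, the Myh2-upstream region -0.014, the Myh4-upstream region -0.24 and 67256519 0.39. At 4 or more Rnase10 cut sites the interaction was 0.55 for Myh3, 0.78 for the Myh3 intron region and -0.72 for 67110076. Region 67110076 was -0.033 with RLE size factors and -0.032 with DESeq2 over all nuclei, -0.017 and -0.0215 in the Rnase10 group, and -0.10 there and -0.026 for the interaction without the deepest nuclei. The interaction of 67256519 was 0.055 with DESeq2. The numbers of the libraries are not shown to pair them (correlation of deviations -6e-04). With the replicate number as a block, edgeR called 0 cluster regions and 0 Myh genes in all 3 comparisons, the lincRNA region was 2.00 over all nuclei and 0.47 in the Rnase10 group, and the interaction of 67256519 was 0.17. Depth limits the shallow cortex 2 most, where single regions of the Rnase10 group rest on 0 to 34 cut sites.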

Other observations

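Among nuclei without Rnase10 counts, the coding-exon region of Myh2 (chr11:67190259-67190996) and the Myh4 body region 18.5 kb into that gene went together, a pair named after its values were seen. In nuclei with a cut site in the Myh2 region the Myh4 region had a mean log2 ratio of 0.99 ± 0.82 (SD, n = 4 libraries, lowest 0.21), and in nuclei with a cut site in the Myh4 region the Myh2 region had 0.97 ± 0.72 (lowest 0.27). In the latter nuclei the Myh4-upstream region was lower in all 4 libraries (-0.55 ± 0.50, highest -0.033). The pair was not alone: the Myh4 region had 0.52 ± 0.17 (lowest 0.31) in nuclei with a cut site in the region at 67110076. In the other direction, the region at 67110076 had 0.43 ± 0.46 (lowest 0.06). The share of all regions higher or lower in all 4 libraries was not counted for these splits. These values are a description, and the counts behind them are few. The highest ratio of the named pair, 2.14 in hippocampus 2, rested on 19 cut sites in 36 nuclei.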
